A study of Mus musculus with 12 samples.

Results

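The DNA replication genes are a set of 55 genes whose products license origins, fire them, copy DNA and supply or package what is copied. They were read in fluorescent cells that had been sorted from the embryonic mouse cortex, where interneurons born in the ventral forebrain arrive by migration. A member was measured through the array probe sets that carry its symbol and no other, and was represented by the probe set whose mean over the 12 arrays was highest. By this rule 52 of the 55 had a value, from 95 probe sets, among 11358 genes of the whole series, and Cdc45, Pola2 and Chaf1a had no probe set with a single symbol. Of the 52, 40 passed the filter on low values, a log2 level of 7.10 to 7.17 to be exceeded on at least 3 arrays, and were tested among 8795 genes. The other 12 (Orc1, Cdc6, Gins3, Ccne1, Ccne2, Pola1, Pold2, Pole, Pole2, Tyms, Tk1 and Clspn) lay below it and are described separately.

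The 4 groups of sorted cells had 3 arrays each. MGE cells, from the medial ganglionic eminence, carried the Nkx2-1-Cre transgene and R26R-YFP fl/fl, a Cre-dependent yellow fluorescent reporter, and were taken at E18.5 and at E14.5. CGE cells, from the caudal and lateral eminences, came from Nkx2-1-Cre;Dlx1-lox-Venus-lox embryos and were taken at E18.5 and at E16.5. In that line Venus follows Dlx1, and Nkx2-1-Cre removes it, so cells of the medial lineage lose the signal. All groups thus carried Nkx2-1-Cre, all came from mice of mixed C57BL/6/CBA background, and lineage cannot be told apart from reporter line. The study used mice of both sexes, and the methods do not give the sex of the embryos behind each array. R26R-YFP marks every cell whose history switched it on, not interneurons alone, whereas Venus follows Dlx1. The reporters therefore select cells by different rules. Embryos were pooled, and the size of the pools is not stated, so the p-values measure only the spread between these arrays.

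DNA replication begins when the origin recognition complex (ORC), CDC6 and CDT1 load the ring-shaped MCM helicase on origins in G1, a step called licensing. Cyclin-dependent kinase and the DBF4-dependent kinase CDC7 then convert the loaded helicase into an active one together with CDC45 and the GINS complex. Primase and the replicative polymerases copy both strands, with PCNA as the sliding clamp, and many of these genes are transcribed under E2F transcription factors as cells enter S phase. In the embryonic forebrain these genes mark dividing progenitors, of neurons and of glia, and migrating interneurons have as a rule left the cell cycle.

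Markers of each lineage followed the labels, and some arrays stood apart. Lhx6, the transcription factor of the MGE lineage, was higher in MGE than in CGE cells at E18.5 by 1.97 ± 0.23 (log2 difference ± SE, n = 3 arrays per group) and Sp8, of the CGE lineage, was lower (-7.48 ± 0.13). All values are log2 intensities, in which 1 unit is a 2-fold step. Each comparison below was fitted with limma, and a gene was called where its p, adjusted over the 8795 genes, was under 0.05. The mean of the 52 replication genes was 8.24, 8.16 and 8.54 on MGE E18.5 replicates 1 to 3, 8.67, 9.29 and 8.81 on CGE E18.5 replicates, 8.08, 8.08 and 7.90 on MGE E14.5 replicates, and 8.42, 7.99 and 7.83 on CGE E16.5 replicates. Within their groups, CGE E18.5 replicate 2 was highest for 39 of the 52 members (75% of them, against 28.6% of all 11358 genes), MGE E18.5 replicate 3 for 39 (75%, against 42.3%) and CGE E16.5 replicate 1 for 38 (73.1%, against 41.4%). The 19 measured mitosis genes, which cells switch on as they divide, had the same arrays on top, at 10.17 on CGE E18.5 replicate 2 against 8.66 and 8.98 on the other 2 arrays of that group, and at 7.89 on CGE E16.5 replicate 1 against 6.30 and 5.96. Counts are therefore given also without these arrays. Fewer replicating cells and less replication RNA per cell cannot be told apart in bulk samples.

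**Figure D1:**
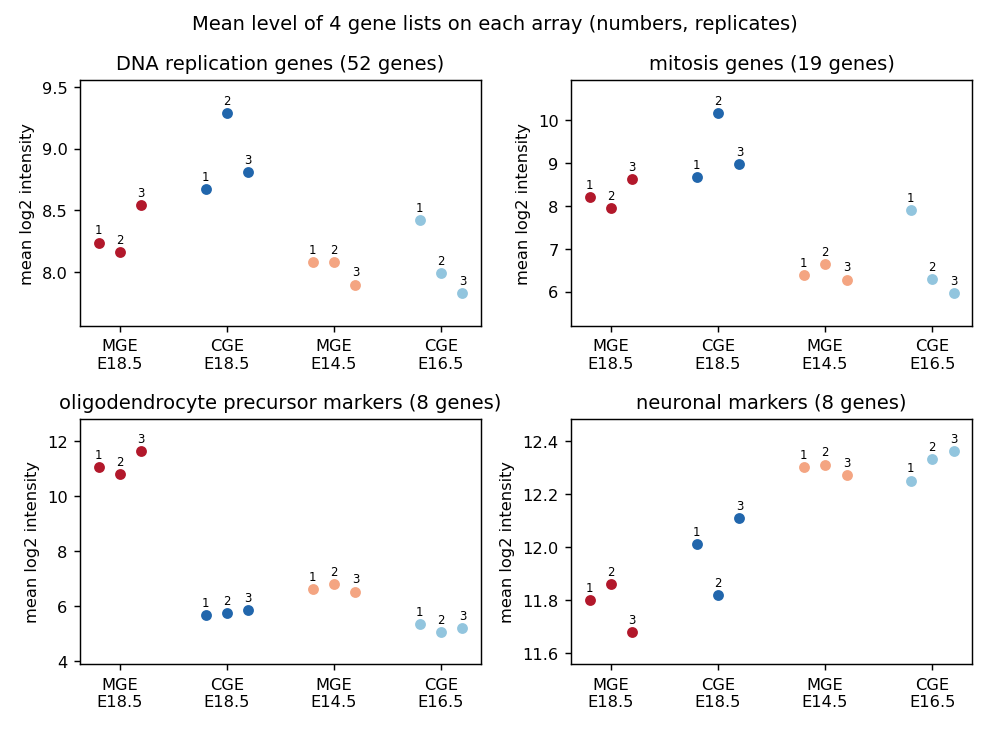
The y axis of each panel is the mean log2 intensity of 1 gene list, on its own scale, and the x axis gives the group. Points are arrays, numbered by replicate. The replication genes reached 9.29 and the mitosis genes 10.17 on CGE E18.5 replicate 2, while oligodendrocyte precursor markers lay between 10.82 and 11.64 on the MGE E18.5 arrays and between 5.06 and 6.80 on all others.

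Promoter sequence is shown as a description, and its part in the differences below was not tested. RefSeq windows of build GRCm38.p6, which reach from 250 bases before to 50 after a gene's start, were found for 45 of the 55 members, and 10 were not matched (Ccne2, Gins1, Gins2, Gins4, Gmnn, Mcm4, Pole, Prim2, Rfc2 and Tipin). The windows were searched on both strands for 4 spellings of the E2F site, TTTCCCGC, TTTGGCGC, TTTCGCGC and TTTGCCGC, which can overlap each other on opposite strands. At least 1 of them stood in the window of 17 of the 45 members (37.8%), against 704 of all 27025 genes of the table (2.60%) and 456 of the 9214 genes that also had a probe set (4.95%). Among members called higher in CGE cells at E18.5 than at E16.5 it was 7 of 15 (46.7%), and among the other tested members 4 of 17 (23.5%). A match is a description of the letters and no evidence of binding, and the absence of a match says only that these letters are not in the window.

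The 6 stretches below lie before the start and were chosen to set members of the called group beside others, with the matched letters in capitals and every sequence written 5′ to 3′ on the gene's own strand. All 6 hold a match, while Rrm2, Pcna and Chaf1b, also called in CGE maturation, had none and are not shown. Mcm5, Mcm7 and Uhrf1 were called in CGE maturation, Mcm6 was called in MGE cells only, Cdc6 was below the filter, and Orc3, with a match, was called in no comparison by its representative probe set.
Mcm5 (chr8:75109332-75109391, plus strand): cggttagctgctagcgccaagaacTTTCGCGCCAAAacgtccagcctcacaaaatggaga
Mcm7 (chr5:138172013-138172072, minus strand): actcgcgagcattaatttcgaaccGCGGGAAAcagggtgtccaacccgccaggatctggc
Uhrf1 (chr17:56304104-56304163, plus strand): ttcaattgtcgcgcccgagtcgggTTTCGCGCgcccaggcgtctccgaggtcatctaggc
Mcm6 (chr1:128359780-128359839, minus strand): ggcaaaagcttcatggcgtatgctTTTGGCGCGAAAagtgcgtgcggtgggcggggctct
Cdc6 (chr11:98907989-98908048, plus strand): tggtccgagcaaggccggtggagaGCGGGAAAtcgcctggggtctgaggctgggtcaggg
Orc3 (chr4:34614948-34615007, minus strand): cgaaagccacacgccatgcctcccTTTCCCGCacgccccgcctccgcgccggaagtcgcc
In Mcm5 and in Mcm6 a pair of spellings overlapped on opposite strands, which gives 1 longer run of capitals. Counted from the start, where -1 is the base before it, the first match lay at -153 in Mcm5, -165 in Mcm7, -185 in Uhrf1, -110 in Mcm6, -138 in Cdc6 and -41 in Orc3. Mcm6 held 3 matches in its window, the last at -47, while Cdt1, Lig1, Mcm3 and Pold3, also called in CGE cells, held theirs after the start.

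Over the 4 groups, the replication genes were highest in CGE cells at E18.5. This group had the highest mean for 43 of the 52 members (82.7%), against 23.1% of all genes measured, and the lowest mean for 0 of them. The lowest mean was in MGE cells at E14.5 for 27 members, in CGE cells at E16.5 for 16 and in MGE cells at E18.5 for 9. Of the remaining 9, Orc3, Orc4 and Orc5 of the origin recognition complex, the kinase gene Cdc7 and Rpa1, of the single-strand binding complex, were highest in MGE cells at E14.5, Prim2 in CGE cells at E16.5, and Orc2, Ccne1 and Pold2 in MGE cells at E18.5.

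**Figure D2:**
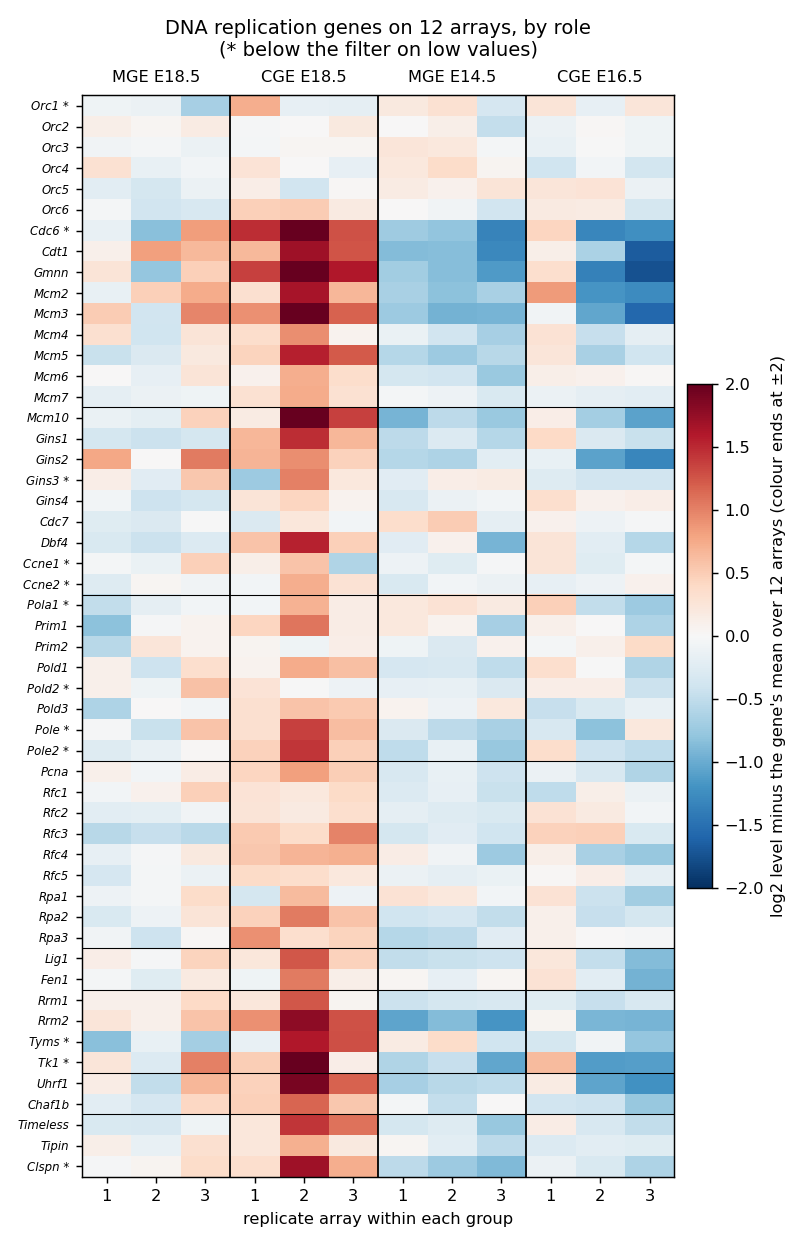
Each row is 1 of the 52 measured members, ordered by role, and each column 1 array, with the colour giving the log2 level minus that gene's mean over the 12 arrays (colour ends at ±2). The CGE E18.5 columns are red for most rows, most strongly replicate 2, and the ORC rows at the top are pale on nearly all arrays.

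CGE maturation sets CGE cells at E18.5 against CGE cells at E16.5. Of the 40 tested members, 19 were higher at E18.5 and 0 were lower (47.5%), where 4.49% of all tested genes were called higher and 6.37% lower. At an unadjusted p under 0.05 the counts were 27 and 0, against 845 and 1489 of all 8795 tested genes. The median difference of the tested members was 0.69, against -0.07 for all tested genes. A positive difference was found in 49 of the 52 measured members, against 4802 of all 11358 genes. Of the 19, 10 were also among the 17 lower in MGE than in CGE cells at E18.5, but both comparisons use the CGE E18.5 arrays.

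The 3 largest differences were those of licensing genes, while the tested ORC genes were not called. Gmnn, which encodes geminin, the inhibitor that binds CDT1 and blocks a new round of licensing, read 8.40, 9.56 and 8.64 at E18.5 and 7.37, 5.69 and 5.30 at E16.5. Every E18.5 array was above every E16.5 array, of which 1 alone exceeded the filter level, and Gmnn was higher by 2.74 ± 0.50 (adjusted p = 0.00777). Cdt1, the licensing factor itself, read 8.61, 9.65 and 9.22 at E18.5 against 8.07, 7.32 and 6.29 at E16.5. The groups did not overlap, although replicate 1 of E16.5 lay near the lowest E18.5 array, and Cdt1 was higher by 1.93 ± 0.39 (adjusted p = 0.0118). Mcm3, a subunit of the helicase ring, read 8.46, 9.64 and 8.73 at E18.5 and 7.48, 6.51 and 5.98 at E16.5, again without overlap (2.28 ± 0.42, adjusted p = 0.00808). Mcm5 (1.34 ± 0.29) and Mcm7 (0.62 ± 0.13), of the same ring, were also called higher. Mcm2 read 7.04, 8.36 and 7.39 at E18.5 against 7.57, 5.54 and 5.46 at E16.5. Replicate 1 of E16.5 lay above 2 of the 3 E18.5 arrays, and Mcm2 was not called (1.41 ± 0.50, adjusted p = 0.0959). Its other kept probe set was called (1.70 ± 0.45, adjusted p = 0.04 in a fit over all probe sets with 1 symbol, from which all values of other probe sets come), so the lack of a call depends on the probe set. Neither were Mcm4 (0.58 ± 0.27) and Mcm6 (0.31 ± 0.17), nor any of the 5 tested ORC genes, which lay between -0.21 (Orc5) and 0.39 (Orc6). Of the 2 other probe sets of Orc3, 1 was called lower at E18.5 (-0.56 ± 0.16, adjusted p = 0.0479).

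Origin firing and fork genes followed in part. Gins2 (1.53 ± 0.31) and Gins1 (1.05 ± 0.24), subunits of the GINS complex, and Mcm10 (1.76 ± 0.43), which activates the helicase, were called higher, while Gins4 (0.07), Cdc7 (-0.03) and Dbf4 (1.03 ± 0.31, adjusted p = 0.0579) were not. Gins1 read 9.83, 10.64 and 9.83 at E18.5 and 9.57, 8.87 and 8.72 at E16.5. Among polymerase and primase genes Pold3, an accessory subunit of polymerase delta, was called (0.77 ± 0.17), and Pold1 (0.56), Prim1 (0.72) and Prim2 (-0.12) were not. Pcna read 12.10, 12.50 and 12.16 at E18.5 and 11.55, 11.36 and 11.07 at E16.5. Its groups were well apart, with 1.90-fold more at E18.5 (0.93 ± 0.15, adjusted p = 0.00479). Rfc4, of the clamp loader, was higher by 1.07 ± 0.25 and Rpa2, of the single-strand binding complex, by 0.92 ± 0.19, whereas Rfc1, Rfc2, Rfc3, Rfc5, Rpa1 and Rpa3 lay between 0.12 and 0.53 and were not called. Lig1, the ligase that seals Okazaki fragments, was higher by 1.02 ± 0.29, and the flap nuclease gene Fen1 was not called (0.65 ± 0.32).

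Nucleotide supply, chromatin behind the fork and fork protection had 2 tested genes each, and all 6 were called, where 4.49% of all tested genes were called higher. In the limma fit with no filter, Rrm1 (adjusted p = 0.0574) and Tipin (adjusted p = 0.054) were not called. Neither were Tyms (1.31 ± 0.40) and Tk1 (1.43 ± 0.56), which lay below the filter, while Clspn (1.26 ± 0.29) was. Rrm2, the S phase subunit of ribonucleotide reductase, read 11.66, 12.54 and 12.02 at E18.5 and 10.80, 9.84 and 9.82 at E16.5, a 3.79-fold difference (1.92 ± 0.27, adjusted p = 0.00288), and Rrm1, its partner subunit, was higher by 0.84 ± 0.25. Uhrf1, which carries DNA methylation over to the new strand, read 8.60, 10.03 and 9.32 at E18.5 and 8.30, 7.08 and 6.93 at E16.5 (1.88 ± 0.41, adjusted p = 0.0161). Chaf1b, of the histone chaperone CAF-1, was higher by 1.25 ± 0.24, and Timeless (1.14 ± 0.27) and Tipin (0.63 ± 0.18), a pair that protects the fork, were also higher. CGE E18.5 replicate 2 and CGE E16.5 replicate 1 were the highest of their groups for Rrm2, Uhrf1 and Gmnn alike.

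The number called in CGE cells depended on single arrays. It was 8 without CGE E18.5 replicate 2, 11 without CGE E16.5 replicate 2, 7 without CGE E16.5 replicate 3 and 19 without CGE E16.5 replicate 1, with 0 lower in each. With neither CGE E18.5 replicate 2 nor CGE E16.5 replicate 1 it was 17, with a median of 0.64. Fitted on the CGE arrays alone it was 5. The share of all genes called in each setting is not set beside these counts. They do not show whether members lost calls more than other genes did. Gmnn, Mcm3 and Rrm2 were called in all 24 alternative settings and Chaf1b in the 23 in which it was tested, whereas Lig1, Rrm1 and Tipin lost the call in 14, 16 and 13 of 24. Cdt1 and Pcna lost it in 1 setting each, the fit on CGE arrays alone.

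MGE maturation sets MGE cells at E18.5 against MGE cells at E14.5, a span of 4 days against 2 in CGE cells. Here 4 of the 40 tested members were higher at E18.5 and 0 were lower (10.0%), where 11.4% of all tested genes were called higher and 9.77% lower, so that the share of members called higher was near that of all genes. At an unadjusted p under 0.05 the counts were 9 and 2, against 1410 and 1567 of all 8795 tested genes. The median difference was 0.22, against -0.06 for all tested genes.

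Cdt1 read 8.06, 8.78 and 8.61 at E18.5 and 7.09, 7.10 and 6.67 at E14.5, without overlap, and was higher by 1.53 ± 0.39 (adjusted p = 0.0169). All 3 E14.5 arrays lay below the filter level for Cdt1. Rrm2 read 10.99, 10.85 and 11.31 at E18.5 against 9.69, 9.88 and 9.57 at E14.5, a 2.52-fold difference (1.34 ± 0.27, adjusted p = 0.00518). The other 2 probe sets of Rrm2 gave 0.92 ± 0.34 and 1.03 ± 0.41, neither of them called, so that this call depends on the probe set. Gins2 read 9.11, 8.35 and 9.39 at E18.5 and 7.78, 7.73 and 8.14 at E14.5 (1.06 ± 0.31, adjusted p = 0.0309). Mcm6 read 10.91, 10.74 and 11.15 at E18.5 and 10.54, 10.51 and 10.15 at E14.5 (0.54 ± 0.17, adjusted p = 0.0473), and it lost the call in 14 of 24 settings. All 4 had groups that did not overlap, but so did uncalled members such as Pcna, Lig1 and Rrm1, and the share over all genes was not counted.

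Several members with large differences in CGE cells had smaller ones here. Gmnn read 7.30, 6.26 and 7.51 at E18.5 against 6.35, 6.18 and 5.90 at E14.5. Replicate 2 of E18.5 lay within the E14.5 range, and Gmnn was not called (0.88 ± 0.50, adjusted p = 0.241). Mcm3 was 1.24 ± 0.42 (adjusted p = 0.0556) and Mcm2 was 1.06 ± 0.50 (adjusted p = 0.16), both with every E18.5 array above every E14.5 array. Pcna read 11.78, 11.62 and 11.83 at E18.5 and 11.35, 11.52 and 11.26 at E14.5, a difference of 0.37 ± 0.15 that was not called (adjusted p = 0.111). Gins1 (0.08), Dbf4 (0.03), Mcm7 (0.02) and Fen1 (-0.01) were close to 0, each with an SE between 0.13 and 0.32. The count was 1 without MGE E18.5 replicate 3, 2 without MGE E18.5 replicate 1 and 2 without either MGE E14.5 replicate 1 or replicate 2, which were the closest pair of replicates in the series (r = 0.995). It was 7, of them 1 lower, without CGE E18.5 replicate 2, which enters only through the shared spread, and 11, of them 1 lower, with the MGE arrays alone.

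**Figure D3:**
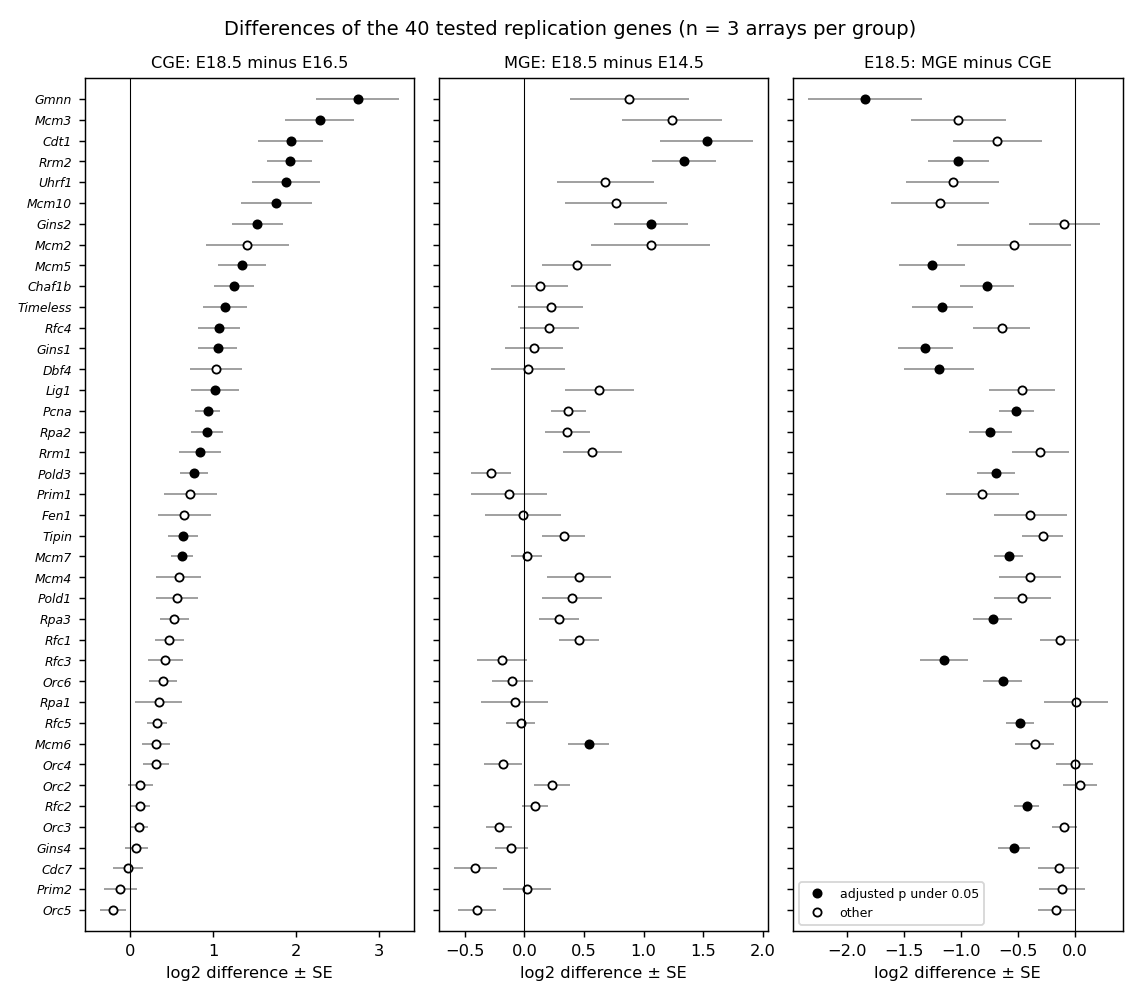
Points are log2 differences (x axis, bars ± SE) of the 40 tested members (y axis, ordered by the CGE difference), filled where the adjusted p was under 0.05. In CGE cells 19 points are filled, all to the right of 0, in MGE cells 4, also to the right, and between MGE and CGE cells at E18.5 17, all to the left.

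The change of the lineage difference is MGE maturation minus CGE maturation. The first spans 4 days from E14.5 and the second 2 days from E16.5, so lineage cannot be told apart from the span of days. Of the 40 tested members, 0 were higher and 1 was lower (2.50%), where 6.77% of all tested genes were called higher and 1.88% lower, so the difference between the 19 and the 4 calls above was for most members not itself called by the representative probe sets. At an unadjusted p under 0.05 the counts were 0 and 10, against 1206 and 751 of all 8795 tested genes. The median was -0.48, against 0.02 for all tested genes. Gmnn was -1.87 ± 0.70 (adjusted p = 0.137), Pcna was -0.56 ± 0.21 (adjusted p = 0.142), Rrm2 was -0.59 ± 0.39 (adjusted p = 0.419) and Mcm2 was -0.35 ± 0.71 (adjusted p = 0.824). Mcm7 was -0.61 ± 0.19 (adjusted p = 0.0688), but each of its 3 other probe sets was called lower (-0.94 ± 0.25, -0.75 ± 0.20 and -0.84 ± 0.19), so that the lack of a call for Mcm7 depends on the probe set. The member called by its representative was Pold3. It read 7.53, 8.15 and 8.09 in MGE cells at E18.5 and 8.21, 8.05 and 8.36 at E14.5, where it was not called (-0.28 ± 0.17), and 8.46, 8.72 and 8.67 in CGE cells at E18.5 against 7.69, 7.84 and 8.0 at E16.5, where it was. The difference between these was -1.05 ± 0.24 (adjusted p = 0.0165), and the 2 other probe sets of Pold3 gave -0.78 ± 0.33 (adjusted p = 0.177) and, below the filter, -0.38 ± 0.45 (adjusted p = 0.663). The count was 4 without CGE E16.5 replicate 1, 3 without CGE E18.5 replicate 1 and 2 without MGE E18.5 replicate 3, all lower.

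**Figure D4:**
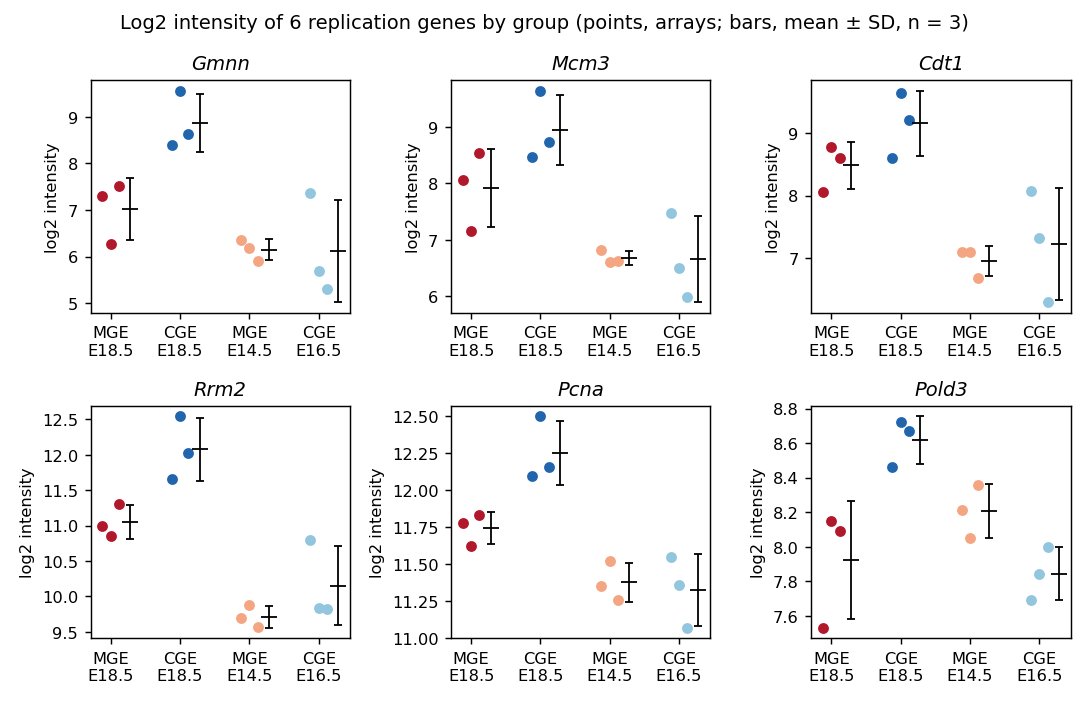
Panels give 1 gene each, with log2 intensity on a y axis scaled per panel and the group on the x axis. Points are arrays and bars the mean ± SD of 3 arrays. For Gmnn, Rrm2, Pcna and Pold3 the 3 CGE E18.5 arrays lie above all arrays of the other groups, and for Cdt1 and Mcm3 they overlap the MGE E18.5 arrays.

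The late lineage comparison sets MGE cells against CGE cells on the same day, E18.5. Here 0 of the 40 tested members were higher in MGE cells and 17 were lower (42.5%), where 13.0% of all tested genes were called higher and 9.85% lower. At an unadjusted p under 0.05 the counts were 0 and 22, against 1613 and 1508 of all 8795 tested genes. The median difference was -0.53, against -0.02 for all tested genes. A negative difference was found in 48 of the 52 measured members, against 5919 of all 11358 genes.

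In licensing, Gmnn read 7.30, 6.26 and 7.51 on MGE arrays and 8.40, 9.56 and 8.64 on CGE arrays, and was lower in MGE cells (-1.84 ± 0.50, adjusted p = 0.0191). Mcm5 read 8.57, 8.73 and 9.22 on MGE arrays against 9.46, 10.57 and 10.24 on CGE arrays (-1.25 ± 0.29, adjusted p = 0.00835). The second kept probe set of Mcm5 gave -0.57 ± 0.43 and was not called, so the size of this difference depends on the probe set. Mcm7 (-0.58 ± 0.13) and Orc6 (-0.63 ± 0.17), an ORC subunit, were also lower, and each of the 3 other probe sets of Mcm7 was called, the smallest at -0.73. Cdt1 (-0.68 ± 0.39, adjusted p = 0.241), Mcm3 (-1.02 ± 0.42, adjusted p = 0.101) and Mcm2 (-0.53 ± 0.50, adjusted p = 0.49) were not called, each with overlapping groups.

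Among genes of helicase activation, Gins1 read 8.82, 8.74 and 8.82 on MGE arrays against 9.83, 10.64 and 9.83 on CGE arrays, 2.48-fold lower in MGE cells (-1.31 ± 0.24, adjusted p = 0.00215). Dbf4, the activating subunit of the CDC7 kinase, read 8.09, 7.97 and 8.12 on MGE arrays against 8.96, 9.93 and 8.87 on CGE arrays (-1.19 ± 0.31, adjusted p = 0.0173), and Gins4 was also lower (-0.53 ± 0.14). The MGE arrays lay close together for both Gins1 and Dbf4, well below all 3 CGE arrays. Gins2 was -0.09 ± 0.31, Cdc7 was -0.14 ± 0.18 and Mcm10 was -1.18 ± 0.43 (adjusted p = 0.07), none of them called.

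Clamp, clamp loader and single-strand binding genes gave 6 of the 17 calls. Rfc3 read 8.67, 8.76 and 8.68 on MGE arrays and 9.75, 9.59 and 10.21 on CGE arrays (-1.15 ± 0.21, adjusted p = 0.00189). Pcna read 11.78, 11.62 and 11.83 on MGE arrays and 12.10, 12.50 and 12.16 on CGE arrays (-0.51 ± 0.15, adjusted p = 0.0307), without overlap. Rfc2 (-0.42 ± 0.11), Rfc5 (-0.48 ± 0.12), Rpa2 (-0.74 ± 0.19) and Rpa3 (-0.72 ± 0.17) were called lower as well, and Rfc1, Rfc4 and Rpa1 were not, although another probe set of Rfc4 was (-0.58 ± 0.19, adjusted p = 0.0496). Among the rest, Pold3 (-0.69 ± 0.17), Chaf1b (-0.77 ± 0.24) and Timeless were lower, Timeless at 8.36, 8.35 and 8.58 on MGE arrays against 8.90, 10.10 and 9.76 on CGE arrays (-1.16 ± 0.27, adjusted p = 0.00934). Rrm2 read 10.99, 10.85 and 11.31 on MGE arrays and 11.66, 12.54 and 12.02 on CGE arrays (-1.02 ± 0.27, adjusted p = 0.0184), and its 2 other probe sets gave -1.39 and -1.36, both called. Uhrf1 (-1.07 ± 0.41, adjusted p = 0.0842) and Prim1 (-0.81 ± 0.32, adjusted p = 0.0931) were not called, and neither were Lig1, Fen1, Rrm1 and Tipin, which lay between -0.46 and -0.28.

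Without 1 array the number lower at E18.5 was 8 (without MGE E18.5 replicate 2), 9 (without CGE E18.5 replicate 2) or 11 (without MGE E18.5 replicate 1), and between 14 and 19 without any other. With neither CGE E18.5 replicate 2 nor CGE E16.5 replicate 1 it was 13. Gins1, Mcm7, Pold3, Rfc3, Rpa3 and Timeless were called in all 24 alternative settings, and Gmnn lost the call without MGE E18.5 replicate 2 (-1.46) and without CGE E18.5 replicate 2 (-1.50).

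The early lineage comparison sets the MGE E14.5 arrays against the CGE E16.5 arrays, so lineage and day cannot be told apart. Of the 40 tested members, 0 were higher and 1 was lower in MGE cells, where 4.16% of all tested genes were called higher and 5.90% lower. At an unadjusted p under 0.05 the counts were 1 and 5, against 861 and 1131 of all 8795 tested genes. The called member was Rfc2, a clamp loader subunit, which read 9.56, 9.49 and 9.44 on MGE arrays and 10.04, 9.93 and 9.69 on CGE arrays (-0.39 ± 0.11, adjusted p = 0.0489). Its call was lost in 17 of 24 settings, among them the removal of 8 of the 12 arrays, 1 at a time. Gmnn was 0.02 ± 0.50 (adjusted p = 0.988), Pcna was 0.05 ± 0.15 (adjusted p = 0.89), Mcm2 was -0.18 ± 0.50 (adjusted p = 0.889) and Rrm2 was -0.44 ± 0.27 (adjusted p = 0.39). CGE E16.5 replicate 1 exceeded the other CGE arrays of its day by more than 1 unit for Gmnn and Mcm2, and the median of -0.10 was 0.04 without it. Of the 40 tested members, 13 were called in no comparison by their representative probe set: Orc2, Orc3, Orc4, Orc5, Mcm2, Mcm4, Cdc7, Prim1, Prim2, Pold1, Rfc1, Rpa1 and Fen1. For 3 of the 13 another kept probe set was called once, for Mcm2 and Orc3 in CGE maturation as given above and for Orc4 in the early comparison, where it was higher in MGE cells (0.60 ± 0.16, adjusted p = 0.0395).

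The 12 members below the filter were fitted only when no filter was set, over all 11358 genes, where dim values may understate a difference. In that fit 20 of the 52 members were lower in MGE than in CGE cells at E18.5, where 9.34% of all 11358 genes were, among them Cdc6 (-1.74 ± 0.50), the ATPase that loads the helicase with CDT1, Tyms (-1.47 ± 0.40), which makes thymidylate, and Pole2 (-0.92 ± 0.29), a subunit of polymerase epsilon. In CGE cells 18 of the 52 were higher at E18.5, where 4.07% of all genes were, including Cdc6 (2.39 ± 0.50) and Clspn (1.26 ± 0.29), a checkpoint mediator at the fork. Cdc6 read 5.59, 4.89 and 6.57 in MGE cells at E18.5, 7.21, 8.06 and 7.0 in CGE cells at E18.5, 5.02, 4.95 and 4.40 in MGE cells at E14.5 and 6.17, 4.43 and 4.50 in CGE cells at E16.5. Only CGE E18.5 replicates 1 and 2 lay above the filter level of 7.10 to 7.17. Tyms read 4.64, 5.33 and 4.80 in MGE cells at E18.5 against 5.33, 7.08 and 6.77 in CGE cells at E18.5. The E cyclin genes Ccne1 and Ccne2, which drive S phase entry, and Orc1 were called in no comparison of this fit. The same fit called 3 of the 52 higher in MGE maturation (12.1% of all genes), 1 lower in the change of the lineage difference (1.84%) and 0 lower in the early comparison (5.10%, and 0 higher).

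Among tested members, 31 lay above the filter level on all 12 arrays. The other 9 did so on fewer: Gins2 and Chaf1b on 11, Uhrf1 on 10, Orc5 and Cdt1 on 8, Mcm3 on 7, Gmnn on 6, and Mcm2 and Mcm10 on 5. Cdt1, Mcm3, Gmnn, Mcm2 and Mcm10 passed mainly through the E18.5 arrays, and a gene that passes because 1 group is high is more likely to differ, so the counts over all 52 members are given beside those of the 40. For Gmnn, Mcm3, Cdt1, Mcm2 and Mcm10 all MGE E14.5 arrays lay below the filter level, and for all of them but Cdt1 so did 2 of the 3 CGE E16.5 arrays, so the size of their differences from the earlier days may be understated. By the suffix of the probe set, 10 of the 52 representatives have probes that can bind more than the named transcript, 7 with some probes that may cross-hybridise (Mcm4, Mcm5, Mcm6, Pold1, Rfc2, Fen1 and Rrm2) and 3 with probes shared by several transcripts (Mcm3, Mcm7 and Rfc4). Where a called member had other kept probe sets, all of them had the same direction, in 10 of 10 cases at E18.5 between lineages (6 called) and in 12 of 12 in CGE maturation (9 called).

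Other genes of the replication pathway had 34 tested of 49 listed. In CGE maturation 9 were higher (26.5%, against 4.49% of all genes) and 0 lower, with Pclaf (2.95 ± 0.57), a PCNA partner, Cdca7 (2.00 ± 0.23), which recruits a chromatin remodeller, Chek1 (1.84 ± 0.51), the S phase checkpoint kinase, and Rnaseh2b (1.21 ± 0.20) as the largest. In MGE maturation 2 were higher (5.88%, against 11.4% of all genes), Hus1 (1.44 ± 0.15), of the checkpoint clamp, and Rnaseh2c (0.39 ± 0.12). In MGE against CGE cells at E18.5, 8 were lower (23.5%, against 9.85% of all genes) and 0 higher, led by Mcm8 (-1.39 ± 0.30), Cdca7 (-1.32 ± 0.23), Pif1 (-1.29 ± 0.33), a helicase, and Wdhd1 (-0.95 ± 0.30). In the early comparison Hus1 (-0.62 ± 0.15) and Rnaseh2c (-0.51 ± 0.12) were lower (5.88%, against 5.90% of all genes). The change of the lineage difference was called lower for Cdca7 (-1.75 ± 0.32), Mcm8 (-1.56 ± 0.42) and Mcmbp (-0.57 ± 0.16) (8.82%, against 1.88% of all genes). It was called higher for Hus1 (0.99 ± 0.21) (2.94%, against 6.77%).

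Regulators of S phase entry had 18 tested of 25 listed. In CGE maturation 6 were higher (33.3%, against 4.49% of all genes) and 0 lower. Ccna2 (2.73 ± 0.56), the S phase cyclin, E2f8 (2.34 ± 0.60), Ccnd2 (1.14 ± 0.20) and E2f3 (1.12 ± 0.20) were the largest. In MGE maturation 4 were higher (22.2%, against 11.4% of all genes) and 1 lower (5.56%, against 9.77%). The 4 were Ccna2 (2.22 ± 0.56) and the D cyclin genes Ccnd1 (1.90 ± 0.19), Ccnd3 (1.67 ± 0.14) and Ccnd2 (0.64 ± 0.20). At E18.5, 2 were higher in MGE cells (11.1%, against 13.0% of all genes), Ccnd1 (3.17 ± 0.19) and Ccnd3 (1.71 ± 0.14). There 4 were lower (22.2%, against 9.85%), among them Ccnd2 (-1.22 ± 0.20) and E2f1 (-0.63 ± 0.18). In the early comparison 3 were higher (16.7%, against 4.16% of all genes), Ccnd1 (1.48 ± 0.19), Myc (1.32 ± 0.14) and E2f3 (0.69 ± 0.20). Ccnd2 alone was lower (-0.72 ± 0.20), a share of 5.56% against 5.90% of all genes. The change of the lineage difference was called higher for Ccnd3 (1.82 ± 0.20) and Ccnd1 (1.69 ± 0.27) (11.1%, against 6.77% of all genes). It was called lower for Myc (-1.11 ± 0.20) (5.56%, against 1.88%). Over the 18 regulators at E18.5, 13 differences were negative and 5 positive, with a median of -0.23, so Ccnd1 and Ccnd3 do not stand for the list.

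Of 11 tested genes of cell cycle exit, 5 were higher (45.5%, against 4.49% of all genes) and 0 lower in CGE maturation. Cdkn2c (2.37 ± 0.36), an inhibitor of the D cyclin kinases, and Insm1 (1.63 ± 0.32), a factor of newborn neurons, led them. In MGE maturation 2 were higher (18.2%, against 11.4% of all genes), Cdkn2c (2.02 ± 0.36) and Cdkn1b (0.70 ± 0.13). As many were lower (18.2%, against 9.77%), Cdkn1c (-1.73 ± 0.18) and Btg1 (-0.33 ± 0.11). In MGE against CGE cells at E18.5, 4 were lower (36.4%, against 9.85% of all genes), led by Insm1 (-2.09 ± 0.32) and Gadd45g (-1.25 ± 0.20). In the early comparison 1 was higher (9.09%, against 4.16% of all genes), Cdkn1c (1.99 ± 0.18). There 4 were lower (36.4%, against 5.90%), led by Insm1 (-1.18 ± 0.32) and Cdkn1a (-0.94 ± 0.22). Cdkn1c alone was called in the change of the lineage difference (-1.59 ± 0.26), where 1.88% of all genes were lower.

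Mitosis genes had 18 tested members of 20 listed. All 18 were higher in CGE maturation (median 2.68), where 4.49% of all genes were, led by Cenpf (3.16 ± 0.63), a kinetochore gene, and Birc5 (2.91 ± 0.57). In MGE maturation 14 were higher (77.8%, against 11.4% of all genes, median 1.94), led by Cenpf (2.82 ± 0.63) and Nusap1 (2.71 ± 0.40), of the spindle. At E18.5, 4 were lower in MGE cells (22.2%, against 9.85% of all genes). They were the kinase genes Aurka (-1.64 ± 0.45), Ttk (-1.61 ± 0.40) and Aurkb (-1.59 ± 0.49) and the kinesin gene Kif20a (-1.27 ± 0.36). In the early comparison 0 were called (4.16% of all genes higher and 5.90% lower), and 0 in the change of the lineage difference (6.77% and 1.88%). At an unadjusted p under 0.05 there were 0 higher and 1 lower in the early comparison, and 0 higher and 3 lower in the change of the lineage difference.

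Markers of other cell types moved with the groups, and their part in the results above was not tested. Of all tested genes, 13.0% were higher and 9.85% lower in MGE than in CGE cells at E18.5, and 4.16% and 5.90% in the early comparison. In MGE maturation 11.4% were higher and 9.77% lower, and in CGE maturation 4.49% and 6.37%. All 8 markers of oligodendrocyte precursors were higher in MGE cells at E18.5, both than in CGE cells (median 5.80) and than in MGE cells at E14.5 (median 4.56), and their mean was 11.06, 10.82 and 11.64 on the MGE E18.5 arrays against 5.66, 5.75 and 5.84 on the CGE E18.5 arrays, 6.63, 6.80 and 6.53 on the MGE E14.5 arrays and 5.34, 5.06 and 5.19 on the CGE E16.5 arrays. In CGE maturation 2 of the 8 were higher, Sox8 (2.17 ± 0.37) and Olig1 (1.03 ± 0.26), and in the early comparison 6 were higher in MGE cells. Neural progenitor and radial glia markers (9 tested) were higher for 6 and lower for 1 in MGE maturation and higher for 3 in CGE maturation, among them Slc1a3 (3.81 ± 0.28 in MGE cells and 0.98 ± 0.28 in CGE cells). At E18.5, 4 of these markers were higher and 2 lower in MGE cells, and in the early comparison 1 was higher and 2 were lower. Their mean ranged from 9.11 to 9.30 in MGE cells at E18.5, from 8.69 to 9.36 in CGE cells at E18.5, from 7.68 to 8.20 in MGE cells at E14.5 and from 8.20 to 8.53 in CGE cells at E16.5. All 3 tested microglia markers (Csf1r, C1qb and Tyrobp) were higher at E18.5 in both lineages, with list means of 6.08 to 6.69 in MGE cells and 6.17 to 6.92 in CGE cells at E18.5, against 4.24 to 4.74 in MGE cells at E14.5 and 4.75 to 5.61 in CGE cells at E16.5.

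Neuronal markers (8 tested) were high on every array, with means of 11.68 to 11.86 in MGE cells at E18.5, 11.82 to 12.11 in CGE cells at E18.5, 12.27 to 12.31 in MGE cells at E14.5 and 12.25 to 12.36 in CGE cells at E16.5. In MGE maturation 4 were lower, led by Stmn2 (-1.25 ± 0.11), and in CGE maturation 1, Rbfox3 (-1.49 ± 0.38). GABAergic interneuron markers (10 tested), among them the lineage factors Lhx6, Sp8 and Prox1, had means of 10.32 to 10.57 in MGE cells at E18.5, 11.66 to 11.76 in CGE cells at E18.5, 10.41 to 10.46 in MGE cells at E14.5 and 11.67 to 11.91 in CGE cells at E16.5. At E18.5, 7 were lower and 1 higher in MGE than in CGE cells, where 9.85% of all genes were lower and 13.0% higher, and 17 replication genes were lower. The median difference of the 10 markers was -0.77 at E18.5 and -0.12 in the early comparison. Because the means include the lineage factors, they do not measure interneuron RNA as a whole. In MGE maturation 6 of the 10 markers were lower and 1 higher, in CGE maturation 1 lower and 0 higher, and in the early comparison 3 lower and 1 higher. Of all tested genes 9.77% were lower and 11.4% higher in MGE maturation, 6.37% and 4.49% in CGE maturation, and 5.90% and 4.16% in the early comparison. Of the pallial markers 2 were tested and 0 were called in any comparison (0 higher and 1 lower in MGE maturation and 0 higher and 2 lower in CGE maturation at an unadjusted p under 0.05, and 0 in the others), and the 1 measured vascular marker lay between 4.31 and 4.88 on all arrays.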

How the data were processed

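RNA of sorted cells had been amplified with the NuGEN Ovation Pico system and hybridised to Affymetrix Mouse430_2 arrays. The deposited values are log2 intensities, which the authors had corrected for background and normalised with Bioconductor. MAS5, with no version, stands in the submitters' processing notes, while the methods name no algorithm. Detection calls were not used here, and a dim value may be an absent transcript. Array medians lay between 7.75 and 7.81. Arrays have no read depth, and their number limits the precision.

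Of 27094 probe sets, 22339 had 1 symbol in the platform annotation, 571 several and 4150 none, and 34 were controls. Probe sets with 1 symbol were kept where they exceeded their array's 40th percentile (7.10 to 7.17) on at least 3 of 12 arrays, and the one with the highest mean stood for its gene. The model was fitted in limma 3.58.1 under R 4.3.3, using lmFit, contrasts.fit and eBayes, with a mean for each group and all 12 arrays (8 residual and 3.60 prior degrees of freedom). Tests were two-sided, with Benjamini-Hochberg adjustment over 8795 genes per comparison, and the procedure was tested on simulated data. Differences are MGE minus CGE, or E18.5 minus the earlier day.

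The members and gene lists were chosen with earlier results of these data known, so no list is independent support. The text names every member, with full statistics for the 4 called members with the largest difference in each direction of a comparison and for Mcm2, Pcna, Rrm2 and Gmnn, and up to 4 called genes of each other list. Further members and markers were added as context. Alternatives were other filters, probe set rules, normalisations and fits, and the removal of arrays.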

Additional observations from a re-analysis of the deposited data

Results flagged for a closer look

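Pold3, the accessory subunit gene of polymerase delta, was the 1 member called by its representative probe set in the change of the lineage difference. This was 2.50% of the tested members, against 1.88% of all tested genes called lower. The days compared differ between the lineages, so lineage and span cannot be told apart. Pold3 was higher at E18.5 than at E16.5 in CGE cells (0.77 ± 0.17) and not called between E18.5 and E14.5 in MGE cells (-0.28 ± 0.17), and the interaction term of the limma fit was -1.05 ± 0.24 (n = 3 arrays per group, adjusted p = 0.0165). The call held in 22 of the 23 alternative settings that could be fitted and was lost when both CGE E16.5 replicate 1 and CGE E18.5 replicate 2 were left out (-0.93), with a range of -1.17 to -0.86. The 2 other probe sets of Pold3 were not called (-0.78 ± 0.33, adjusted p = 0.177, and, below the filter, -0.38 ± 0.45, adjusted p = 0.663).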

How the results depend on the processing

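The number of members called kept its direction in the late comparison and in CGE maturation under every alternative tried, and no difference of a called member changed sign. Counts under alternatives, here and above, are given without the share of all genes called in the same setting. They do not show whether members gained or lost calls more than other genes did. The late comparison (17 lower) gave 8 to 19 with 1 array left out and stayed within 1.5 times under all other settings. CGE maturation (19 higher) gave 7 to 19 with 1 array left out and 5 with only the groups of the comparison, the cause of which was not tested. MGE maturation (4 higher) gave 1 to 7 with 1 array left out, 2 with the probe set of highest variance, 2 with MGE E14.5 replicates 1 and 2 averaged, 15 with array weights (12 higher and 3 lower), 11 with only the groups of the comparison and 9 with neither CGE E16.5 replicate 1 nor CGE E18.5 replicate 2. The early comparison (1 lower) gave 0 to 2 with 1 array left out, 0 with no filter, 2 with the filter at the 60th percentile, 0 with the mean of all kept probe sets, 0 with quantile normalisation, 8 with array weights (3 higher and 5 lower), 2 with only the groups of the comparison and 0 with the averaged pair. The change of the lineage difference (1 lower) gave 1 to 4 with 1 array left out, 2 with the mean of probe sets, 2 with the probe set of highest variance, 2 with median centring, 2 with the trended and robust fit, 2 without the 2 arrays named above and 6 with array weights. It could not be fitted with only 1 comparison's groups, and the planned pseudocounts had no use for values already on a log2 scale. Leaving out the 2 arrays together and averaging the pair were chosen after seeing the data.

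Replicate numbers are shared between groups but nothing says that they pair samples, and same-numbered arrays correlated in their deviations between -0.172 and 0.279. With the replicate block, 0 members were called in the early comparison, 16 in the late one, 3 in MGE maturation, 17 in CGE maturation and 1 in the change of the lineage difference. Dim members and the unknown normalisation limit small differences most.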
